A study of Homo sapiens with 18 samples.

Results

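The endoplasmic reticulum (ER) module holds 34 genes that fold secreted and membrane proteins in the ER lumen, move them across the ER membrane, degrade those that fail to fold, or sense such failure. The genes were taken by symbol from a list, each symbol matched 1 Ensembl identifier of the table of expression values (TPM, transcripts scaled to a fixed sum in each library), and all 34 were among the 14936 genes, of 60504 identifiers, that reached 1 TPM in at least 3 of 18 libraries. The libraries came from A375, an established human melanoma line with an activating BRAF mutation, grown with or without IMD-0354, a small-molecule blocker of IKKβ, a kinase of the NF-κB pathway. At 24 h the groups were untreated cells and cells given 0.32, 0.63 or 1.25 µM IMD-0354. At 48 h they were cells given 0.63 µM and untreated cells. Each group had 3 libraries, all from a single line with no transgene or engineered allele in its labels. No vehicle is named for untreated cells, and nothing states whether replicate libraries stem from separate cultures, so p-values measure the spread between these libraries, which may be technical.

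When unfolded protein builds up in the ER, the chaperone HSPA5 (BiP) is drawn away from the membrane sensors IRE1 (gene ERN1), PERK (gene EIF2AK3) and ATF6. ATF6 is then cut in the Golgi to release a transcription factor, IRE1 splices the XBP1 messenger so that it codes for an active factor, and PERK phosphorylates eIF2α, which lowers translation in general and favours that of ATF4. The ATF6 fragment and spliced XBP1 raise the genes of chaperones and of ER-associated degradation, often through the ER stress response element (ERSE) in their promoters, while ATF4 acts mainly on amino acid and redox genes and on DDIT3 (CHOP). In secretory and tumour cells this response sets the folding capacity of the ER. Gene-level TPM counts spliced and unspliced XBP1 together, and phosphorylation and cleavage of the sensors leave no trace in such a table.

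Promoter sequences of 32 of the 34 genes were in RefSeq's table for GRCh38.p14, as windows of 250 bases before to 50 after the start site. PDIA3 and DERL1 had no entry. The ERSE was searched on both strands as CCAAT and CCACG with 9 bases of any kind between them, and its short form as ATTGG and CCACG with 1 base between them. The ERSE stood in 27 of all 35116 windows, a share of 0.077%, and in the windows of 9 members: HSPA5, HSP90B1, CALR, CANX, PDIA6, SERP1, XBP1, CRELD2 and ERO1B. The short form stood in 19 windows, a share of 0.054%, and in those of HERPUD1, HYOU1 and SDF2L1. The unfolded protein response element TGACGTGG stood in 256 windows (0.729%), among them that of HYOU1, and the ATF4 composite element TGATGNAA in 1270 windows (3.617%), among them those of CREB3L2 and HERPUD1. In HYOU1 the unfolded protein response element, at -188 to -181 before the start site, overlapped a further copy of the short form at -185 to -175, both outside the stretch shown here; no other matches in a member window overlapped.

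The stretches below are shown because their genes carry the contrast on which the results turn. They run 5′ to 3′ in the direction of the gene, with capitals marking the element, written as its reverse complement where it lies on the opposite strand. The 2 longest belong to HSPA5, which rose, and to HSP90B1, which did not pass the test. The HSPA5 stretch lies at chr9:125241344-125241593 on the minus strand, and its element spans positions -66 to -48 before the start site.
HSPA5: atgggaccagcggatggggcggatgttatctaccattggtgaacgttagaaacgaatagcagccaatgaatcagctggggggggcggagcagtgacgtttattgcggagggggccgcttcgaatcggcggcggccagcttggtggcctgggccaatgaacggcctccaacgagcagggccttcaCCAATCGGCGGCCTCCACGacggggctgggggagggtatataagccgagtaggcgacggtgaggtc
The HSP90B1 stretch lies at chr12:103930160-103930409 on the plus strand and holds 2 elements, the first at -194 to -176 and the other on the opposite strand.
HSP90B1: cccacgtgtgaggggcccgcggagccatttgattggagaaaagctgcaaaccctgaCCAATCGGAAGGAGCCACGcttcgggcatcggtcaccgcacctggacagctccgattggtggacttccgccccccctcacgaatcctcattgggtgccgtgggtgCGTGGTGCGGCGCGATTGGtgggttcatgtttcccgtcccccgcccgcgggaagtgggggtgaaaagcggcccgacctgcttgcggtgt
Further members that rose were XBP1 (chr22:28800573-28800651 on the minus strand), SERP1 (chr3:150546680-150546746 on the minus strand), HERPUD1 (chr16:56931995-56932065 on the plus strand) and HYOU1 (chr11:119057244-119057314 on the minus strand).
XBP1: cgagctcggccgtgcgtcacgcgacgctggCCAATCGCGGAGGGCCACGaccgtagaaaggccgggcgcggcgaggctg
SERP1: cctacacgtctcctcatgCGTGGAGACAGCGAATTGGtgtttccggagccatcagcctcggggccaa
HERPUD1: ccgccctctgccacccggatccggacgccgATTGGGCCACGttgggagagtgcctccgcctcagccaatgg
HYOU1: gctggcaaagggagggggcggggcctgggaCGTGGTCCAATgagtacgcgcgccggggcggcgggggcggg
Members with the same letters that passed the test in no comparison were CALR (chr19:12938359-12938432 on the plus strand), PDIA6 (chr2:10812823-10812901 on the minus strand) and SDF2L1 (chr22:21642084-21642154 on the plus strand).
CALR: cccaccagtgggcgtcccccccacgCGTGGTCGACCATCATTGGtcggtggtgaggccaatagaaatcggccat
PDIA6: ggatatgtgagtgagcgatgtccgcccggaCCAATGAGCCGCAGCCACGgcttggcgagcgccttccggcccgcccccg
SDF2L1: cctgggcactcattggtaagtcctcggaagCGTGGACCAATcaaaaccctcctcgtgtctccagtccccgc

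At 24 h the number of ER genes that rose went up with the dose, from 0 at 0.32 µM to 2 at 0.63 µM and 9 at 1.25 µM, and at 48 h 5 rose at 0.63 µM. Over all 14936 genes the number that rose also went up, from 1 at 0.32 µM to 203 and 738, and was 291 at 48 h. The deposited column names begin with numbers that part the 24 h libraries into untreated and 0.32 µM, and 0.63 and 1.25 µM. What these numbers stand for is not stated. At 24 h, changes between those sets of libraries cannot be told apart from a difference tied to the numbers. None of the 34 fell in any of the 8 comparisons made. Of all genes, 0.824%, 6.36% and 5.68% fell at 0.63 µM, 1.25 µM and 0.63 µM for 48 h, shares at which few of 34 genes would fall. HSPA5, the ER's main Hsp70 chaperone, reached 2.54-fold of the untreated level at 1.25 µM and 4.196-fold at 48 h, and HERPUD1, a membrane scaffold of the degradation machinery, 4.33-fold and 3.88-fold. HSP90B1 (GRP94), the most abundant member, and the disulfide isomerases, oxidases and lectin chaperones did not pass the test at any dose, although CANX did so at 48 h under 2 other scalings. These calls come from limma on log2(TPM + 1) with Benjamini-Hochberg adjustment over all 14936 genes, at an adjusted p under 0.05, and every change below is on that log2 scale, which understates the change of genes near 1 TPM; a fold is 2 raised to that change.

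**Figure D1:**
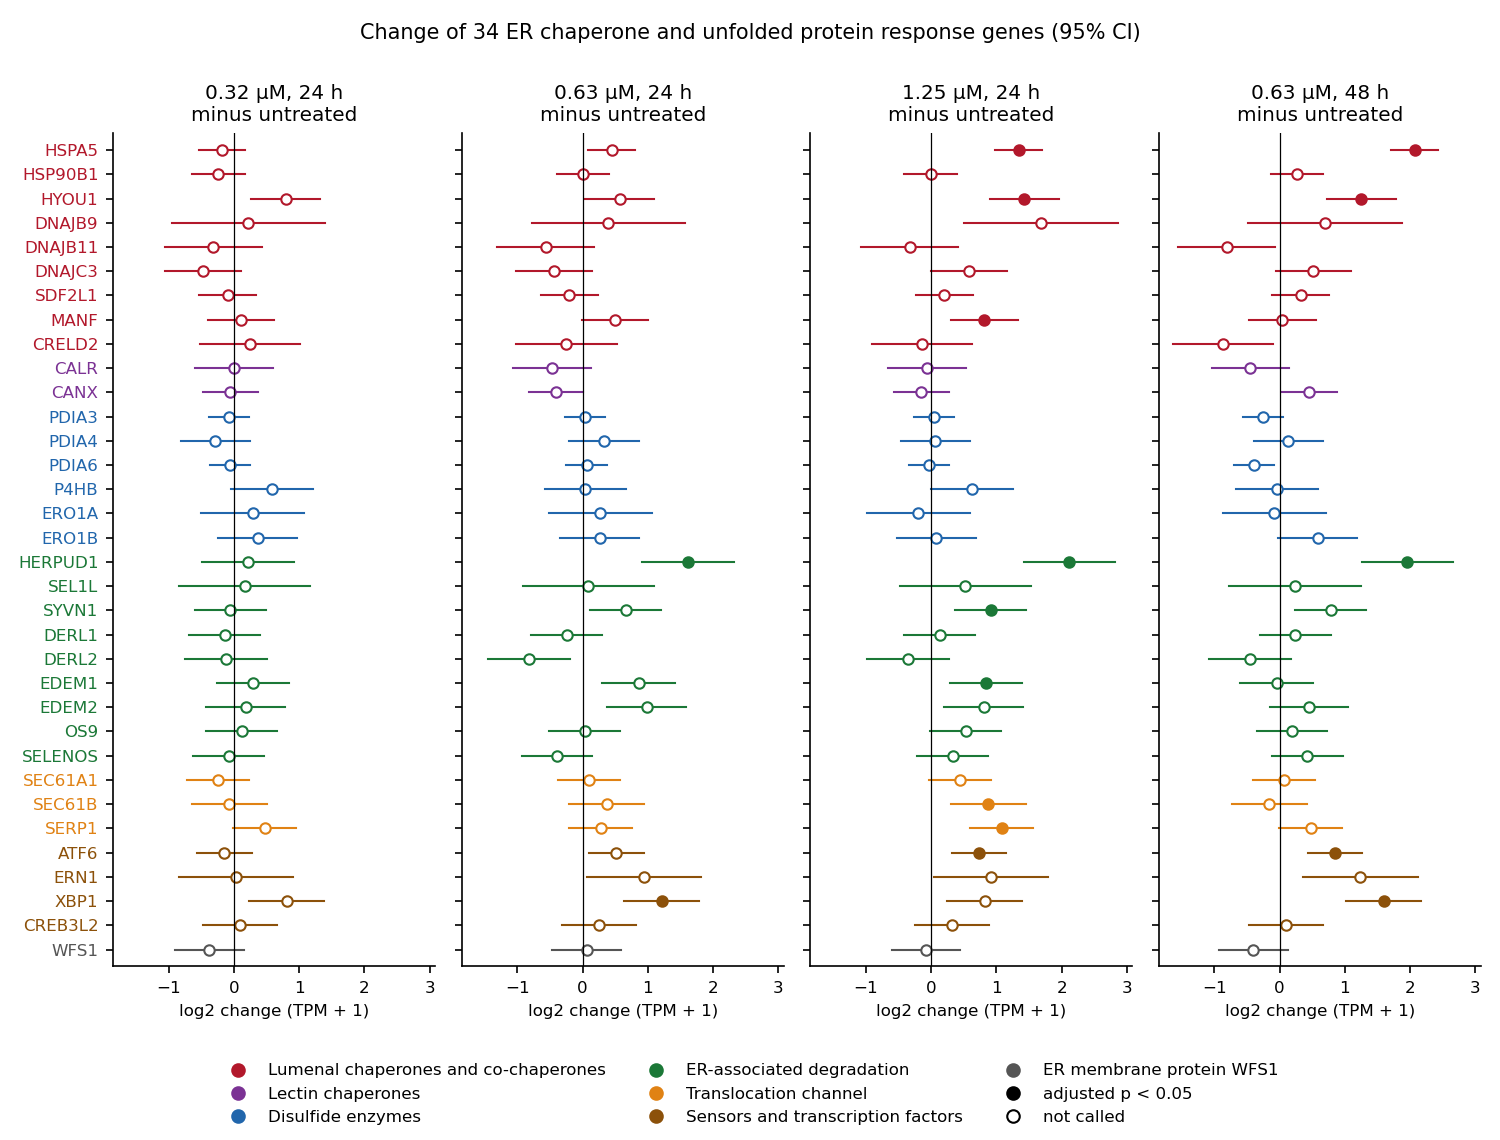
Change of each of the 34 members (rows, coloured by role) against the untreated cells of its time, as log2(TPM + 1) with 95% confidence intervals, in 4 panels for the 4 treated groups, 3 libraries each. Filled points passed an adjusted p under 0.05, and they number 0, 2, 9 and 5 from the left panel to the right, all to the right of 0.

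At 0.32 µM, 4 of all 14936 genes (0.0268%) were called in either direction and no member was; 2 members (5.88%), HYOU1 and XBP1, and 912 of all genes (6.11%) had an unadjusted p under 0.05 (limma), a share of members near that of all genes. The median member change was -0.02, beside 0.00 over all genes. At 0.63 µM for 24 h, 1.36% of all genes rose and 0.824% fell, against 2 members that rose, and the median member change was 0.18, beside 0.00 over all genes. At 1.25 µM, 4.94% of all genes rose and 6.36% fell, against 9 of 34 members that rose, and the medians were 0.48 for members and -0.01 for all genes. At 0.63 µM for 48 h, 1.95% of all genes rose and 5.68% fell, against 5 of 34 members that rose, and the medians were 0.24 for members and -0.15 for all genes. The 48 h medians are to be read against that -0.15, which other scalings put at 0.00 (median-of-ratios and quantile); under each of these the members that rose at 48 h numbered 7, with CANX and SYVN1 added. With library weights they also numbered 7, with SYVN1 and ERN1 added. Leaving out single libraries changed the number of members that rose to between 0 and 2 at 0.63 µM for 24 h, between 4 and 9 at 1.25 µM (4 without untreated 24 h replicate 2 or 1.25 µM replicate 2, 5 without replicate 1 of either group) and between 4 and 6 at 48 h.

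The facts of the libraries as a whole were these. The table holds no read counts, so depth is unknown, and 14647 to 17029 genes were above 0 in each library. Untreated 24 h replicate 2 correlated least with its own group (mean r = 0.907), and pairs of libraries correlated at r = 0.866 to 0.956. The 34 members together took 0.178% to 0.298% of all TPM. The 4 most abundant chromosome 21 transcripts, which are no members, took 13.1% to 24.8% of it, with group means of 23.6% and 23.5% in treated and untreated cells at 48 h and 18.1%, 19.4%, 14.2% and 15.0% at 24 h from untreated to 1.25 µM. Their part in the member changes was measured by rescaling without them, which left 2, 6 and 5 members that rose at 0.63 µM, 1.25 µM and 0.63 µM for 48 h. Of 10 melanocytic and melanoma markers, SOX10 (8.29 to 34.7 TPM), MITF (2.87 to 16.8), AXL (37.1 to 144) and NGFR (4.11 to 23.6) were above 0 in all 18 libraries, while the pigment genes PMEL, DCT and MLANA stayed at or under 2.37 TPM and TYR was listed at 0 throughout. From untreated to 1.25 µM at 24 h the 10 summed to 65.6 to 147, 118 to 133, 151 to 185 and 152 to 165 TPM, and at 48 h to 124 to 141 TPM at 0.63 µM and 116 to 129 TPM in untreated 48 h cells. The 7 markers of other skin cells (keratinocytes, fibroblasts, leukocytes, endothelium) summed to at most 1.19 TPM in any library, with PTPRC listed at 0; the part of the first list in the member changes was not tested. In bulk RNA, fewer cells of a type and less RNA per cell cannot be told apart.

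In untreated cells at 24 h the members spanned a wide range of levels per length. HSP90B1 had the highest mean, 605 ± 228 TPM (SD, n = 3 here and below), followed by the lectin chaperones CANX with 297 ± 73.2 and CALR with 234 ± 65.0, and by HSPA5 with 183 ± 52.4 TPM. The lowest HSP90B1 library, at 467 TPM, lay above the highest CANX library, at 380 TPM, while CANX, CALR and HSPA5 overlapped between neighbours. The sensors lay low, with ATF6 at 6.04 ± 0.48 and ERN1 at 0.45 ± 0.50 TPM. TPM is divided by transcript length although a 3′ end library yields about 1 tag per transcript, so the order between genes depends on the lengths used.

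Among the lumenal chaperones and co-chaperones, 3 of 9 rose at 1.25 µM (HSPA5, HYOU1 and MANF) and 2 of 9 at 48 h (HSPA5 and HYOU1). HSPA5 (ENSG00000044574) binds unfolded chains in the lumen. At 24 h it had 172, 240 and 137 TPM in untreated cells, 155, 156 and 160 at 0.32 µM, 220, 240 and 273 at 0.63 µM, and 461, 467 and 432 TPM at 1.25 µM. At 48 h it had 512, 491 and 541 TPM at 0.63 µM, against 131, 134 and 103 TPM in untreated cells. Every library at 1.25 µM lay above every other 24 h library, the 0.63 µM libraries overlapped the untreated ones at 24 h, and the groups lay far apart at 48 h. HSPA5 rose by 1.34 ± 0.17 (SE; adjusted p = 0.000124, limma) at 1.25 µM and by 2.07 ± 0.17 (adjusted p = 3.47e-06, limma) at 48 h, while at 0.63 µM for 24 h the change was 0.45 (95% interval 0.09 to 0.81; adjusted p = 0.175, limma). Without untreated 24 h replicate 2 the change at 0.63 µM was 0.66 (adjusted p = 0.036). The calls at 1.25 µM and at 48 h held under all 31 alternatives.

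HSPA5 was also the single member called between doses and between times. At 1.25 against 0.63 µM it rose by 0.89 ± 0.17 (adjusted p = 0.0132, limma), in a comparison in which 0.469% of all genes rose and 1.04% fell. Without 0.63 µM replicate 1 or replicate 2 that adjusted p was 0.0748 or 0.053. Between 0.63 and 0.32 µM no member passed the test, and 0.556% of all genes were called in either direction. An unadjusted p under 0.05 (limma) was found for 9 members (26.5%) and for 2082 of all genes (13.9%). Without untreated 24 h replicate 2, HSPA5 (0.63, adjusted p = 0.0219) and HERPUD1 (1.40, adjusted p = 0.0453) passed between these doses. The effect of 0.63 µM on HSPA5 was 2.07 at 48 h and 0.45 at 24 h, each against its own untreated cells, and this difference of 1.62 ± 0.24 passed the test (adjusted p = 0.0217, limma), as 1 of 5 genes (0.0335%) that did. With library weights 28 genes were higher and 123 lower in that difference. The HSPA5 difference no longer passed when any of 7 single libraries was left out, with adjusted p from 0.0524 to 0.097: untreated 24 h replicate 1, 0.63 µM 24 h replicates 1 and 2, untreated 48 h replicates 1 and 3, and 0.63 µM 48 h replicates 2 and 3. Untreated cells at 48 h against 24 h gave no called member; HSPA5 averaged 123 ± 17.1 TPM at 48 h and 183 ± 52.4 at 24 h (change -0.55, adjusted p = 0.514, limma), and 0.0134% of all genes were called. In that comparison 6 members (17.6%) and 1181 of all genes (7.91%) had an unadjusted p under 0.05 (limma). Only 7 of 34 members were higher at 48 h, beside 46.5% of all genes. The median change was -0.25 for members and -0.03 for all genes. SDF2L1 had the lowest, -1.06 (adjusted p = 0.239, limma).

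**Figure D2:**
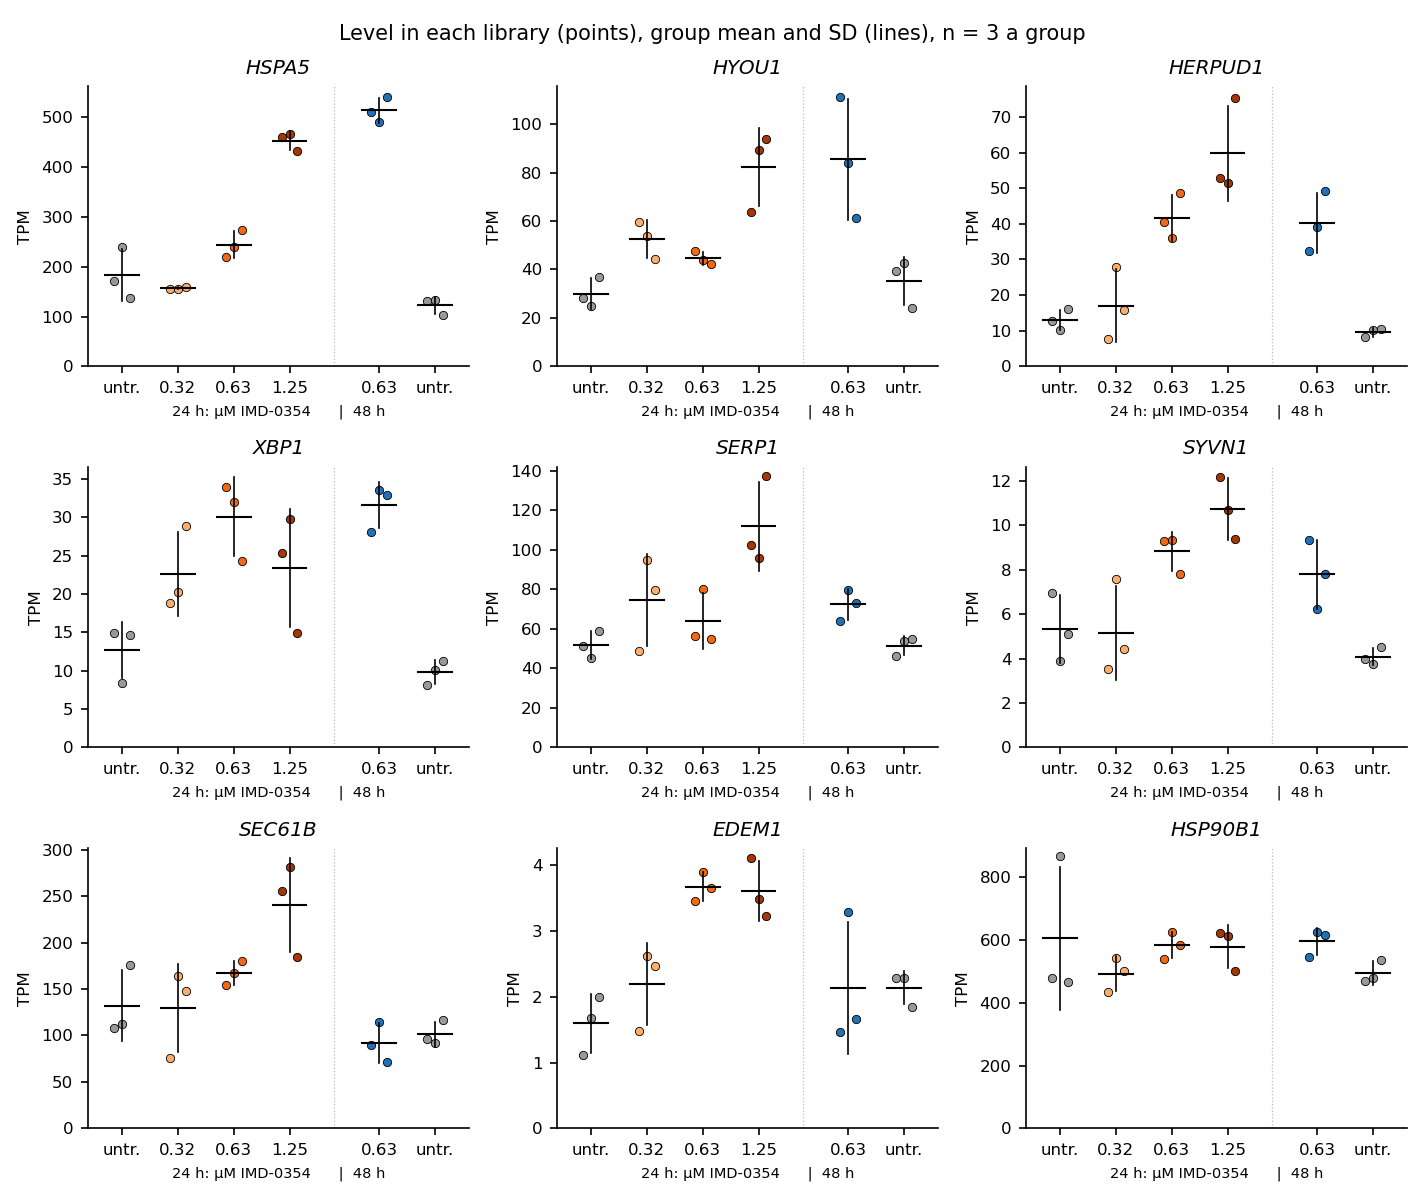
TPM of 9 members in each of the 18 libraries (points), with the group mean (horizontal line) and SD (vertical line), 3 libraries a group; the dotted line parts 24 h (left, untreated to 1.25 µM) from 48 h (0.63 µM, then untreated), and each vertical axis starts at 0. HSPA5 at 1.25 µM (432 to 467 TPM) lies above all other 24 h libraries (137 to 273 TPM), whereas HSP90B1 overlaps between all 24 h groups.

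HYOU1 (GRP170), an Hsp70 relative that exchanges nucleotide on HSPA5, had 28.4, 24.8 and 37.0 TPM in untreated 24 h cells. It had 59.7, 53.8 and 44.4 TPM at 0.32 µM, 47.6, 43.7 and 42.3 at 0.63 µM, and 63.9, 89.3 and 93.9 at 1.25 µM. After 48 h its values were 111, 83.8 and 61.2 TPM at 0.63 µM, against 39.4, 42.7 and 24.0 TPM in untreated cells. All 9 treated 24 h libraries lay above the 3 untreated ones, and the 48 h groups did not overlap either. HYOU1 rose by 1.42 ± 0.25 at 1.25 µM (adjusted p = 0.0018, limma) and by 1.25 ± 0.25 at 48 h (adjusted p = 0.00573, limma), whereas 0.80 at 0.32 µM did not pass (adjusted p = 0.687, limma). The antisense gene AP003392.3, which overlaps HYOU1, rose by 1.08 at 1.25 µM (226 against 107 TPM; adjusted p = 0.00434, limma), and as counting by strand is not stated, reads of the pair cannot be told apart.

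MANF, a small ER-resident and secreted protein that binds HSPA5, ranged from 124 to 153 TPM at 1.25 µM and from 63.5 to 90.3 TPM in untreated 24 h cells. It rose by 0.82 ± 0.24 (adjusted p = 0.038, limma). The call was lost under 11 of 31 alternatives, among them without untreated 24 h replicate 1 or 2, any 1.25 µM replicate, or untreated 48 h replicate 1 (adjusted p up to 0.129). At 48 h MANF averaged 78.1 ± 6.49 TPM at 0.63 µM and 75.8 ± 4.32 TPM in untreated cells.

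The other lumenal members did not pass the test. DNAJB9 (ERdj4), a J-domain partner of HSPA5, had the largest change of a member that was not called, 1.68 at 1.25 µM (adjusted p = 0.0615, limma), from uneven libraries of 4.65, 9.64 and 20.5 TPM, against 1.66, 2.66 and 3.00 TPM untreated. It passed without 1.25 µM replicate 1 (2.16, adjusted p = 0.0303) and with a pseudocount of 5 TPM (1.05, adjusted p = 0.0444). DNAJB9 overlaps PNPLA8 on the opposite strand, which averaged 8.65 TPM over all libraries beside 4.50 TPM for DNAJB9 and rose by 1.10 at 1.25 µM (adjusted p = 0.00656, limma), so reads of this pair cannot be told apart either. DNAJC3 (P58IPK), another J-domain protein, had 31.3 ± 9.49 TPM at 1.25 µM and 20.9 ± 7.78 TPM in untreated cells. Without untreated 24 h replicate 2, DNAJC3 passed at 1.25 against 0.63 µM (1.02, adjusted p = 0.0326, limma). DNAJB11 (ERdj3) had 16.5 ± 6.74 TPM at 0.63 µM for 48 h and 29.7 ± 12.3 TPM in untreated cells (change -0.81, adjusted p = 0.191, limma). SDF2L1, a partner of DNAJB11, averaged 27.4 ± 1.40 TPM at 1.25 µM and 24.1 ± 6.27 TPM in untreated cells. CRELD2, known from other work as an ER stress-induced protein, had 5.31 ± 2.72 TPM at 0.63 µM for 48 h and 10.3 ± 4.11 TPM untreated (change -0.86, adjusted p = 0.176, limma).

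HSP90B1, the ER's Hsp90 chaperone, was taken up in full after its values were seen, because it shares the ERSE with HSPA5 and, unlike HSPA5, did not pass the test. At 24 h it had 479, 868 and 467 TPM in untreated cells, 436, 544 and 500 at 0.32 µM, 541, 625 and 585 at 0.63 µM, and 623, 613 and 500.5 TPM at 1.25 µM. In the 48 h libraries it had 545, 624 and 616 TPM at 0.63 µM, against 470, 478 and 537 TPM in untreated cells. The 24 h groups overlapped, with untreated replicate 2 the highest of all, and the 48 h groups lay just apart. The change was -0.01 at 1.25 µM (95% interval -0.41 to 0.39) and 0.27 at 48 h (-0.13 to 0.67, adjusted p = 0.47, limma). Every library at 1.25 µM lay above the untreated ones of 479 and 467 TPM and below replicate 2, at 868 TPM. The -0.01 thus depends on that replicate, and the change without it is not given here. For HSPA5 the changes were 1.34 (0.98 to 1.70) and 2.07 (1.71 to 2.43), and the difference between the 2 genes was not tested. Within each library, where no scaling matters, the ratio of HSPA5 to HSP90B1 averaged 0.309 ± 0.044 untreated, 0.321 ± 0.035 at 0.32 µM, 0.419 ± 0.043 at 0.63 µM and 0.788 ± 0.066 at 1.25 µM for 24 h. At 48 h it averaged 0.867 ± 0.077 at 0.63 µM and 0.250 ± 0.051 in untreated cells. As the pair was chosen for its difference, the ratio is a description and was not tested.

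**Figure D3:**
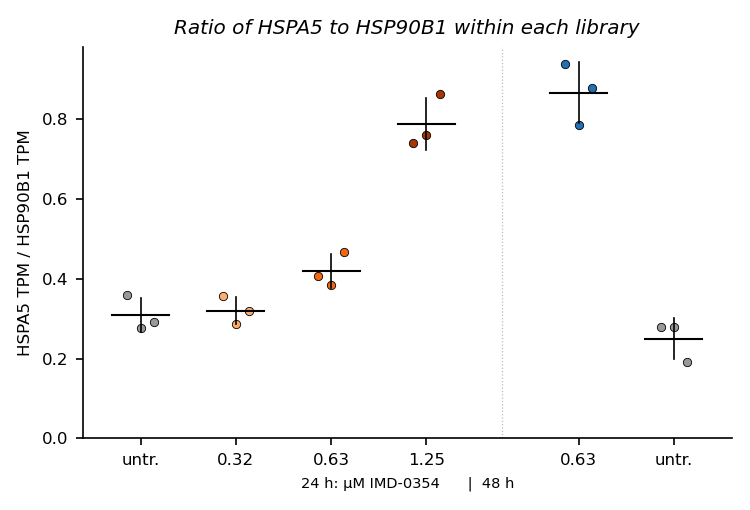
Ratio of HSPA5 TPM to HSP90B1 TPM within each of the 18 libraries (points), with group mean and SD (lines, 3 libraries a group), for 24 h from untreated to 1.25 µM and for 48 h with 0.63 µM before untreated. The 1.25 µM libraries lie between 0.740 and 0.864, and the untreated 24 h libraries between 0.276 and 0.359.

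Neither the lectin chaperones nor the disulfide enzymes passed the test in any comparison, with 1 exception under other scalings, CANX at 48 h. CALR and CANX bind glycoproteins that carry a trimmed glucose. CALR averaged 218 ± 5.33 TPM at 1.25 µM and 234 ± 65.0 in untreated cells, and ranged from 95.4 to 135 TPM at 0.63 µM for 48 h and from 145 to 175 TPM in untreated cells. An antisense gene over CALR, AC092069.1, had a mean of 1116 TPM against 189 TPM for CALR itself, so its TPM is uncertain. CANX averaged 264 ± 27.5 TPM at 1.25 µM and 297 ± 73.2 in untreated cells. At 48 h it averaged 342 ± 33.9 TPM at 0.63 µM and 253 ± 59.6 in untreated cells, a change of 0.46 (adjusted p = 0.191, limma). That change was 0.66 (adjusted p = 0.0362) with median-of-ratios scaling and 0.76 (adjusted p = 0.011) with quantile normalization. The 6 disulfide enzymes, the isomerases PDIA3, PDIA4, PDIA6 and P4HB and the oxidases ERO1A and ERO1B that recharge them, had changes from -0.19 to 0.63 at 1.25 µM and from -0.39 to 0.58 at 48 h. PDIA6 had 118 ± 4.38 TPM at 1.25 µM and 122 ± 4.64 TPM in untreated cells, and its interval at 1.25 µM ran from -0.34 to 0.27. P4HB also overlaps an antisense gene, AC145207.3, of 151 TPM on average.

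Of the 9 genes of ER-associated degradation, 1 rose at 0.63 µM (HERPUD1), 3 at 1.25 µM (HERPUD1, SYVN1 and EDEM1) and 1 at 48 h (HERPUD1). HERPUD1 (ENSG00000051108), which brings ubiquitin ligase and channel components together, had 12.7, 10.3 and 16.0 TPM in untreated 24 h cells and 7.59, 27.9 and 15.7 at 0.32 µM. It had 40.4, 36.0 and 48.7 TPM at 0.63 µM and 52.8, 51.4 and 75.3 at 1.25 µM. At the 48 h point it had 32.4, 39.2 and 49.3 TPM at 0.63 µM, against 8.13, 10.1 and 10.4 TPM in untreated cells. The 0.63 and 1.25 µM libraries all lay above the untreated ones of their time, and the 0.32 µM libraries spread across the untreated range and beyond it. HERPUD1 rose by 1.62 ± 0.33 at 0.63 µM (adjusted p = 0.0217, limma), by 2.12 ± 0.33 at 1.25 µM (adjusted p = 0.000738, limma) and by 1.95 ± 0.33 at 48 h (adjusted p = 0.0016, limma). The calls at 1.25 µM and at 48 h held under all 31 alternatives. The call at 0.63 µM for 24 h was lost without untreated 24 h replicate 2 (adjusted p = 0.0744) and without 0.63 µM replicate 1 (0.0571) or replicate 3 (0.11).

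SYVN1 (HRD1), the ubiquitin ligase at the centre of ER-associated degradation, had 6.95, 3.91 and 5.09 TPM in untreated 24 h cells, 3.54, 7.56 and 4.41 at 0.32 µM, 9.30, 9.36 and 7.81 at 0.63 µM, and 12.2, 10.7 and 9.38 at 1.25 µM. The 48 h values were 9.35, 6.25 and 7.79 TPM at 0.63 µM, against 3.96, 3.77 and 4.50 TPM in untreated cells. Treated and untreated libraries did not overlap at 0.63 or 1.25 µM at 24 h, or at 48 h. SYVN1 rose by 0.92 ± 0.26 at 1.25 µM (adjusted p = 0.0297, limma), and the 0.78 at 48 h did not pass (adjusted p = 0.0784, limma). The 48 h change passed with median-of-ratios scaling (0.96, adjusted p = 0.0311), quantile normalization (0.94, 0.0286) and library weights (0.78, 0.0222). The call at 1.25 µM was lost with library weights (adjusted p = 0.0708) and without untreated 24 h replicate 2 or 3 or any of the 1.25 µM replicates (adjusted p up to 0.106). SYVN1 overlaps FAU on the same strand, a gene of 3119 TPM on average that rose by 0.49 at 1.25 µM (adjusted p = 0.00619, limma), and MRPL49 on the opposite strand, so its few TPM are uncertain.

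EDEM1, which trims mannose from glycoproteins bound for degradation, had 1.11, 1.68 and 1.99 TPM in untreated 24 h cells, 1.48, 2.62 and 2.47 at 0.32 µM, 3.46, 3.90 and 3.65 at 0.63 µM, and 4.11, 3.49 and 3.22 at 1.25 µM. For 48 h, its levels were 1.46, 3.29 and 1.66 TPM at 0.63 µM, against 2.29, 2.28 and 1.85 TPM in untreated cells. The groups lay apart at 0.63 and 1.25 µM at 24 h and overlapped at 48 h. EDEM1 rose by 0.84 ± 0.26 at 1.25 µM with an adjusted p of 0.0498 (limma), at the edge of the threshold, and the call was lost under 23 of 30 alternatives, with most single libraries left out among them (adjusted p up to 0.154 without untreated 24 h replicate 1). EDEM2, of the same family, ranged from 5.67 to 9.26 TPM at 1.25 µM and from 2.26 to 5.11 TPM in untreated cells (adjusted p = 0.079, limma). SEL1L, the partner of SYVN1, the lectin OS9, the membrane proteins DERL1 and DERL2 and SELENOS had changes from -0.35 to 0.53 at 1.25 µM and passed in no comparison. Without untreated 24 h replicate 2, SELENOS passed at 1.25 against 0.63 µM (0.72, adjusted p = 0.0494, limma).

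At the translocation channel, 2 of 3 members rose at 1.25 µM and none at 48 h. SERP1 (RAMP4), a small protein at the channel that stabilises membrane proteins under stress, had 51.5, 45.2 and 59.1 TPM in untreated 24 h cells, 49.0, 94.8 and 79.8 at 0.32 µM, 56.3, 80.4 and 55.0 at 0.63 µM, and 103, 95.7 and 137 at 1.25 µM. At 48 h it had 64.0, 79.8 and 73.3 TPM at 0.63 µM, against 46.3, 53.7 and 54.7 TPM in untreated cells. The 1.25 µM libraries lay above all others at 24 h, and the 48 h groups did not overlap. SERP1 rose by 1.08 ± 0.23 at 1.25 µM (adjusted p = 0.00599, limma); the 0.48 at 48 h did not pass (adjusted p = 0.239, limma). The call was lost when only the compared groups were fitted (adjusted p = 0.0524) and without untreated 24 h replicates 2 and 3 together (0.0865). SERP1 overlaps EIF2A on the opposite strand, whose change at 1.25 µM was -0.23 (157 against 190 TPM; adjusted p = 0.678, limma).

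SEC61B, a subunit of the channel itself, had 108, 112 and 176 TPM in untreated 24 h cells, 76.1, 164 and 148 at 0.32 µM, 154.5, 167 and 180 at 0.63 µM, and 256, 281 and 184 at 1.25 µM. After 48 h its values were 89.7, 115 and 71.6 TPM at 0.63 µM, against 96.1, 91.3 and 117 TPM in untreated cells. At 1.25 µM the lowest library stood just above the highest untreated one, and the 48 h groups overlapped. SEC61B rose by 0.87 ± 0.27 at 1.25 µM (adjusted p = 0.0483, limma), a call lost under 18 of 31 alternatives, up to an adjusted p of 0.155 without 1.25 µM replicate 2. SEC61A1, the channel's pore subunit, had 23.5 ± 4.72 TPM at 1.25 µM and 17.3 ± 4.75 TPM in untreated cells (adjusted p = 0.236, limma). It overlaps MGLL and RUVBL1 on the opposite strand, which averaged 38.0 and 96.7 TPM over all libraries beside 15.5 TPM for SEC61A1. These changed by 1.73 and -0.91 at 1.25 µM (adjusted p = 0.00046 and 0.00418, limma), so the TPM of SEC61A1 is uncertain.

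Of the 4 sensors and transcription factors, XBP1 rose at 0.63 µM at both times and ATF6 at 1.25 µM and at 48 h. XBP1 (ENSG00000100219) had 14.9, 8.44 and 14.7 TPM in untreated 24 h cells, 18.8, 20.3 and 28.9 at 0.32 µM, 33.97, 32.01 and 24.3 at 0.63 µM, and 25.4, 29.8 and 14.9 at 1.25 µM. In the 48 h libraries it had 28.1, 33.6 and 33.0 TPM at 0.63 µM, against 8.11, 10.1 and 11.3 TPM in untreated cells. All libraries at 0.32 and 0.63 µM were above the untreated ones, whereas at 1.25 µM the lowest library, replicate 3, was level with the highest untreated ones. XBP1 rose by 1.21 ± 0.27 at 0.63 µM (adjusted p = 0.0322, limma) and by 1.59 ± 0.27 at 48 h (adjusted p = 0.00164, limma). At 1.25 µM the change was 0.82 (adjusted p = 0.0614, limma), and without replicate 3 of that group it was 1.10 (adjusted p = 0.0223). It also passed with a minimum of 5 TPM (adjusted p = 0.0441), median-of-ratios scaling (0.0475) and quantile normalization (0.043). The call at 48 h held under all 31 alternatives, and that at 0.63 µM for 24 h was lost without untreated 24 h replicate 2 (adjusted p = 0.109) or any 0.63 µM replicate (0.0794 to 0.0884).

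ATF6 had 5.70, 5.83 and 6.58 TPM in untreated 24 h cells, 4.43, 6.12 and 5.61 at 0.32 µM, 8.59, 8.78 and 9.91 at 0.63 µM, and 11.3, 12.2 and 8.86 at 1.25 µM. At the 48 h point it had 13.8, 10.4 and 10.6 TPM at 0.63 µM, against 6.38, 5.83 and 5.72 TPM in untreated cells. Untreated values were close together at both times, and every library at 0.63 or 1.25 µM exceeded them. ATF6 rose by 0.74 ± 0.20 at 1.25 µM (adjusted p = 0.0237, limma) and by 0.84 ± 0.20 at 48 h (adjusted p = 0.0145, limma). The call at 1.25 µM was lost without untreated 24 h replicate 1 or 2 (adjusted p = 0.0652 and 0.0544) or 1.25 µM replicate 1 or 2 (0.0671 and 0.0883), and the 48 h call without untreated 48 h replicate 2 (0.0559) or 0.63 µM 48 h replicate 1 (0.0663).

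ERN1, the gene of the kinase and nuclease IRE1, lay near the detection limit. It had 0.07, 1.02 and 0.27 TPM in untreated 24 h cells, 0.27, 0.52 and 0.52 at 0.32 µM, 1.49, 0.74 and 3.50 at 0.63 µM, and 1.12, 1.93 and 1.98 at 1.25 µM. The 48 h values were 2.55, 1.16 and 5.50 TPM at 0.63 µM, against 0.26, 0.53 and 0.97 TPM in untreated cells. The 1.25 µM libraries and the treated 48 h libraries stood above their untreated cells with wide spread, and none of the comparisons passed the test (1.24 ± 0.41 at 48 h; adjusted p = 0.0838, limma). The 48 h change passed with library weights (1.14, adjusted p = 0.0316) and without 0.63 µM 48 h replicate 2 (1.62, adjusted p = 0.0367). CREB3L2, a membrane-bound factor related to ATF6 in how it is released, had 6.13, 4.11 and 3.38 TPM in untreated 24 h cells, 3.52, 7.64 and 3.94 at 0.32 µM, 5.50, 4.88 and 6.05 at 0.63 µM, and 6.82, 5.45 and 5.11 at 1.25 µM. At 48 h CREB3L2 had 6.81, 4.84 and 6.45 TPM at 0.63 µM, against 5.18, 6.24 and 5.20 TPM in untreated cells. Its groups overlapped throughout and no change reached 0.5. WFS1, an ER membrane protein tied to calcium handling, stayed between 0.99 and 2.53 TPM in all libraries and was not called.

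The highest dose at 24 h and the longer exposure share no library, not even controls. Of the 9 members that rose at 1.25 µM and the 5 that rose at 0.63 µM for 48 h, 4 were the same: HSPA5, HERPUD1, HYOU1 and ATF6, which is 44.4% of the first list and 80% of the other. Of all genes, 4.94% rose at 1.25 µM and 1.95% at 48 h. Their overlap was not counted, so these shares cannot be called particular to the members. XBP1 was called at 48 h and not at 1.25 µM, and SERP1, SYVN1, EDEM1, SEC61B and MANF at 1.25 µM and not at 48 h. XBP1 at 1.25 µM and SYVN1 at 48 h were called under the alternatives given above, and the difference between these 2 effects was not tested. Over the 34 members, 21 were higher and 7 lower in both comparisons. Of all genes, 48.3% were higher at 1.25 µM and 38.6% at 48 h, and the share with the same direction in both was not counted. The member changes correlated at Pearson r = 0.756, beside 0.458 over all 14936 genes, as a description only, since the genes of a comparison share its libraries.

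**Figure D4:**
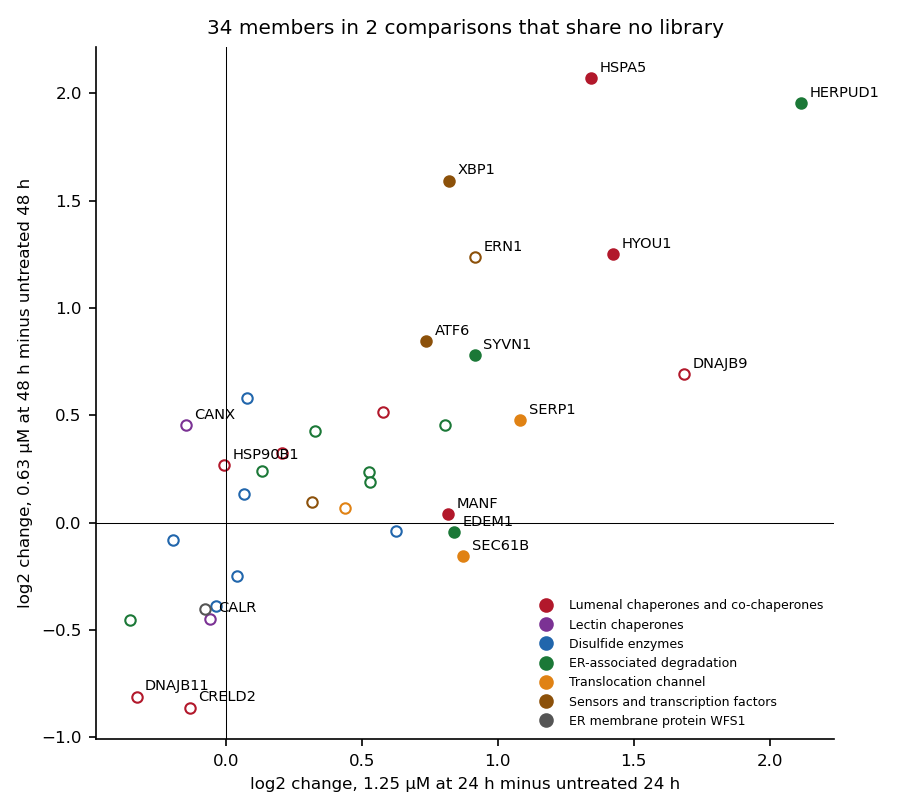
Log2 change of the 34 members (points, coloured by role) at 1.25 µM for 24 h (horizontal) and at 0.63 µM for 48 h (vertical), each against the untreated cells of its time; filled points passed the test in at least 1 of the 2. HSPA5 and HERPUD1 lie at the upper right, while MANF, EDEM1 and SEC61B changed by 0.82, 0.84 and 0.87 at 1.25 µM and lie near 0 at 48 h.

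Set against the promoter letters, members with and without the ERSE or its short form were among the calls. Of the 12 members with the element or its short form in the window, 5 rose in at least 1 comparison with untreated cells (HSPA5, HERPUD1, HYOU1, XBP1 and SERP1). Of the 20 with a window and neither form, 5 rose as well (ATF6, SYVN1, EDEM1, SEC61B and MANF). By comparison, 4 of the 12 and 5 of the 20 rose at 1.25 µM, and 4 of the 12 and 1 of the 20 at 48 h. The calls that held under all alternatives, of HSPA5, HERPUD1, HYOU1 and XBP1 (at 48 h), were all of members with the element or its short form. This is a description that was not tested, and HERPUD1 also holds the ATF4 composite element. At 1.25 µM the calls of the 5 without the ERSE or its short form were lost under 6 (ATF6) to 23 (EDEM1) alternatives, and that of SERP1 under 2. The median change of the 12 was 0.14 at 1.25 µM and 0.47 at 48 h, and that of the 20 was 0.55 and 0.12. CALR and PDIA6, whose stretches are shown above, had changes of -0.06 and -0.04 at 1.25 µM, SDF2L1 one of 0.20. Overlapping genes, given above, make the TPM of CALR uncertain here, as they do for HYOU1, SYVN1 and SERP1 among the members that rose. A match is no evidence that a factor binds there, and a window without one may hold a variant of the element.

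Outside the module, 138 further genes were counted in 8 lists, of which 133 passed the filter. They are genes of ER function, genes downstream of ATF4 that are not all ER genes, and transcripts known as IRE1 decay substrates. Their counts stand beside 1.36%, 4.94% and 1.95% of all genes that rose, and 0.824%, 6.36% and 5.68% that fell, at 0.63 µM, 1.25 µM and 0.63 µM for 48 h. The PERK and ATF4 arm moved most: of 15 genes, 9 rose at 0.63 µM, 11 at 1.25 µM and 12 at 48 h, and none fell. DDIT3 (CHOP), the proapoptotic factor of this arm, averaged 230 ± 19.7 TPM at 1.25 µM and 14.9 ± 3.06 TPM in untreated cells, a rise of 3.87 (adjusted p = 6e-06, limma). PPP1R15A (GADD34), which guides eIF2α dephosphorylation, averaged 225 ± 10.7 TPM at 1.25 µM and 19.6 ± 2.93 TPM in untreated cells, a rise of 3.46 (adjusted p = 1.9e-08, limma). CHAC1, which degrades glutathione, rose by 2.62 at the same dose, and by 1.67 without untreated 24 h replicate 2. With each of the 18 libraries left out in turn, DDIT3 and PPP1R15A kept their calls at 1.25 µM. ASNS lost its call at 1.25 µM in 14 of the 18 cases, and CEBPG at 0.63 µM for 24 h in 9. The median of the list was 1.185 at 1.25 µM and 1.42 at 48 h, beside 0.48 and 0.24 for the 34 members and -0.01 and -0.15 for all genes. Genes downstream of ATF4 also respond to other eIF2α kinases, so the list is not particular to PERK or to the ER, and which kinase acted was not tested.

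Of 18 genes of N-glycosylation and its sugar donors, 3 rose at 0.63 µM, 5 at 1.25 µM and 2 at 48 h, where 1 (MAGT1, -0.96) fell. With each of the 18 libraries left out in turn, the MAGT1 call was lost in 13 cases. That of ALG2 at 1.25 µM was lost in 14, and those of GFPT1, UAP1 and RPN1 at 1.25 µM in none. GFPT1, which sets the entry into the hexosamine pathway, averaged 18.2 ± 2.97 TPM at 1.25 µM and 4.98 ± 0.34 TPM in untreated cells (rise of 1.68), and 19.4 ± 2.11 TPM at 0.63 µM for 48 h and 4.82 ± 1.17 TPM in untreated cells (rise of 1.82; adjusted p = 0.0001, limma). UAP1, which makes UDP-N-acetylglucosamine, rose by 1.11 and RPN1, of the oligosaccharyltransferase, by 1.07 at 1.25 µM. Of 22 translocation and signal cleavage genes, 1 rose at 0.63 µM (SEC61G, by 1.32), 4 at 1.25 µM (SEC61G by 1.79, SSR4 by 1.296 and SRPRB by 0.85 the largest) and 1 at 48 h (SPCS3, by 0.96). Without untreated 24 h replicate 2 the SSR4 change was 0.72 (adjusted p = 0.011). Single libraries left out in turn lost the call of SEC11A, also among the 4, in 16 of 18 cases, and that of SEC61G at 0.63 µM in 5. Of 22 ER-Golgi traffic genes, 3 rose at 1.25 µM, led by KDELR3 (1.11), a receptor that returns lumenal proteins to the ER, and 1 at 48 h, KDELR3 (1.08). The KDELR3 call was lost in 4 of 18 such cases at 1.25 µM and in 10 of 18 at 48 h.

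Of 20 further folding enzymes, 2 rose at 0.63 and at 1.25 µM, the cyclophilin PPIB (1.11 and 1.03) and the calcium-binding CALU (0.78 and 0.90), and none at 48 h. Without untreated 24 h replicate 2 the PPIB changes were 0.74 and 0.66 (adjusted p = 0.108 and 0.0583). With single libraries left out in turn, the calls at 0.63 µM were lost in 9 (PPIB) and 5 (CALU) of 18 cases. Of 17 further degradation genes, 2 rose at 1.25 µM (EDEM3 by 0.85, ERLEC1 by 0.46) and 1 fell, VCP, the ATPase that pulls substrates from the membrane (-0.79); at 48 h VCP alone fell (-0.98). A count of 1 of 17 is near the 6.36% and 5.68% of all genes that fell. The ERLEC1 call was lost in 16 of 18 single-library cases, that of VCP at 1.25 µM in 3, and those of EDEM3 and of VCP at 48 h in none. Of 12 further sensors and regulators, 3 rose at 1.25 µM: EIF2AK3, the PERK gene (1.10), CREB3 (0.88) and TMBIM6 (0.68). EIF2AK3, at 0.41, 1.61 and 0.26 TPM in untreated 24 h cells, lost its call in 13 of 18 single-library cases, CREB3 in 2 and TMBIM6 in none. At 48 h 2 of the 12 fell, BAX (0.50 ± 0.43 against 5.00 ± 1.22 TPM, change -2.03) and CREB3L1, which was listed at 0 in all treated 48 h libraries and averaged 3.09 ± 2.53 TPM in untreated ones. Of 7 transcripts known as IRE1 decay substrates, SCARA3 fell by 1.17 on the log2 scale at 1.25 µM, and SCARA3 and SPARC fell at 48 h (-1.35 and -0.99). SCARA3 stayed at or under 3.57 TPM and lost these calls in 4 and 2 of 18 single-library cases, SPARC in none. BLOC1S1 was not called. It ranged from 64.3 to 75.7 TPM at 1.25 µM against 34.8 to 56.9 untreated, and from 38.8 to 53.2 at 48 h against 62.3 to 67.0. Decay by IRE1 was not tested. At 0.32 µM none of the genes in these lists was called. Leaving out untreated 24 h replicates 2 and 3 together left 2 and 6 of the 15 PERK and ATF4 genes called at 0.63 and 1.25 µM.

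**Figure D5:**
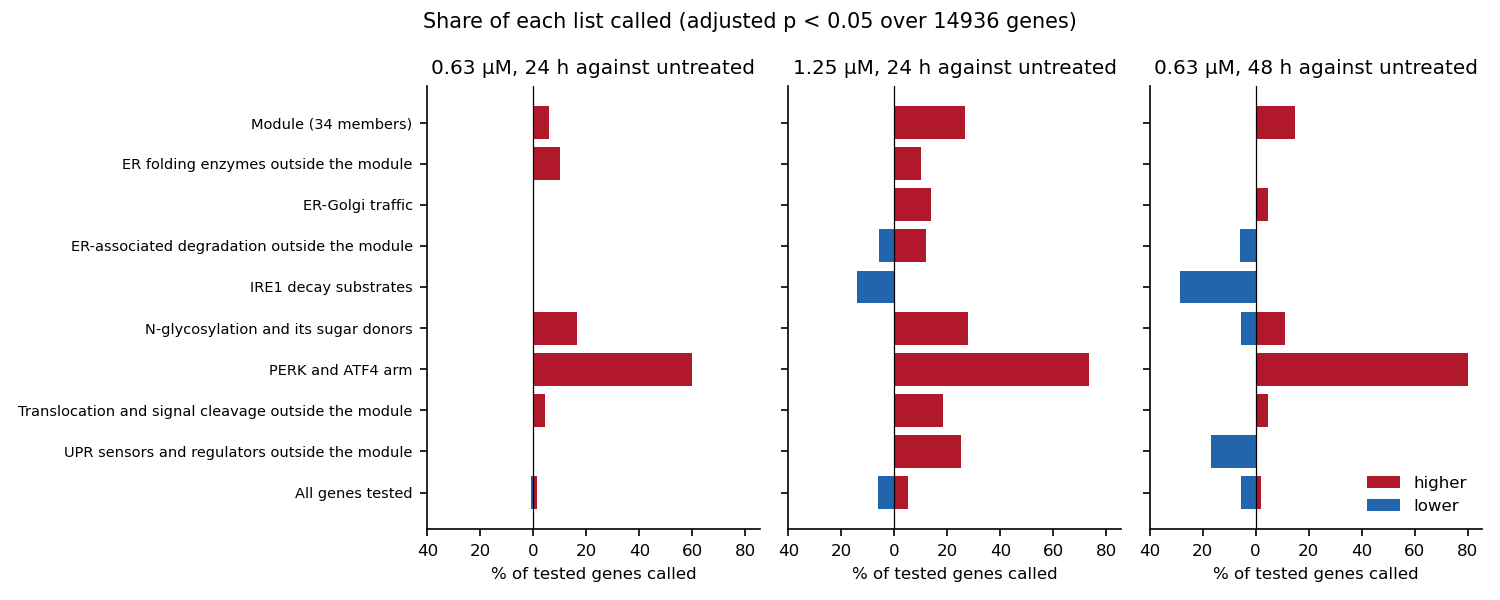
Share of the tested genes of each list that were called higher (red, right of 0) or lower (blue, left of 0) at an adjusted p under 0.05, for 0.63 µM and 1.25 µM at 24 h and 0.63 µM at 48 h, beside the 34 members and all 14936 genes. The PERK and ATF4 arm has 9, 11 and 12 of 15 genes higher, and the 34 members 2, 9 and 5.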

How the data were processed

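RNA of A375 cells was profiled in 18 libraries (6 groups of 3), made from total RNA with a 3′ end kit (QuantSeq FWD), per the labels' protocols. The authors deposited TPM for 60504 Ensembl identifiers; the submitters' processing notes name cutadapt 1.18, STAR 2.7, RSEM 1.3.1 and DESeq2 with no role, while the sources used here do not give build, annotation or strand setting. Symbols came from a gene name table, and overlaps from GENCODE 29 (GRCh38).

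The 14936 genes that reached 1 TPM in 3 or more libraries were tested as log2(TPM + 1), pseudocount 1, with limma 3.58.1 in R 4.3.3: 1 mean per group over all 18 libraries, a mean-variance trend, and Benjamini-Hochberg adjustment over all genes (threshold 0.05, two-sided). The calculation was tested on simulated data. TPM gives no depth, so no count-based interval is possible.

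Members and lists were chosen with earlier results of these data known. Members called in a comparison with untreated cells were described, with every library for the 8 of largest change and for the 4 sensors, and up to 3 called genes a list were named. No RefSeq protein sequence was used here.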

Additional observations from a re-analysis of the deposited data

Results flagged for a closer look

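The effect of 0.63 µM on HSPA5 differed between the exposure times by the test of the difference itself: it was larger at 48 h than at 24 h by 1.62 on the log2 scale (adjusted p = 0.0217, limma), each against the untreated cells of its time. HSPA5 averaged 514 ± 25.3 TPM in treated and 123 ± 17.1 TPM in untreated cells at 48 h, and 244 ± 26.9 TPM in treated and 183 ± 52.4 TPM in untreated cells at 24 h (SD, n = 3 each). The untreated level was itself lower at 48 h, by a change of -0.55 that did not pass the test. The effect at 24 h also spans both sets of column numbers given above. The call for the difference was lost under 9 of 31 alternatives. Among them were single libraries left out, as given above, only the compared groups fitted (adjusted p = 0.137, limma) and no mean-variance trend (0.0858).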

How the results depend on the processing

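Each result was recomputed under 31 alternatives, or 30 for EDEM1, ERN1, ERO1B and WFS1, which gave no value under the 5 TPM minimum. HSPA5, HERPUD1 and HYOU1 at 1.25 µM, and these and XBP1 at 0.63 µM for 48 h, kept direction and call under all of them. Leaving out 1 library at a time gave 0 to 2 members called at 0.63 µM, 4 to 9 at 1.25 µM, 4 to 6 at 48 h, 0 to 3 for 1.25 against 0.63 µM, 0 to 2 for 0.63 against 0.32 µM and 0 to 1 for the difference between times. Fitting only the compared groups gave 0, 3 and 0 members at 0.63 µM, 1.25 µM and the difference between times, the last also 0 without the mean-variance trend; no filter gave 1 at 0.63 µM. Without untreated 24 h replicates 2 and 3 together the counts were 0 at 0.63 µM, 3 at 1.25 µM, 2 for 1.25 against 0.63 µM and 1 for 0.63 against 0.32 µM, and CREB3L2 turned to -0.14 at 0.63 µM and -0.078 at 1.25 µM. The causes were not tested, except that fewer libraries were used. Same-numbered libraries deviated together at r = -0.093 to 0.115. Such values give no sign that the numbers pair libraries but cannot exclude it. A replicate block gave 1 member instead of 0 for 0.63 against 0.32 µM and 9 and 5 at 1.25 µM and at 48 h. Over all genes, rescaling without the chromosome 21 transcripts gave 147 higher and 184 lower at 0.63 µM, against 203 and 123, and median-of-ratios scaling gave 492 and 507 at 48 h, against 291 and 849. Library weights gave 636 higher and 1676 lower at 48 h, and 28 and 123 for the difference between times, against 5 genes; they gave 114 and 236 for 1.25 against 0.63 µM, against 70 and 156, and 126 in all for 0.63 against 0.32 µM, against 83. Depth is unknown.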
